A study of Drosophila montana and Drosophila virilis with 10 samples.

Results

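A small group of 15 gene identifiers, of 15342 in the deposited tables, received many reads in control D. montana and almost none in control D. virilis. The members were chosen by their read share in the control libraries, expressed as counts per 1000000 gene reads (CPM). An identifier was taken when its mean was at least 50 CPM over the 3 D. montana controls and at most 3 CPM over the 2 D. virilis controls. The levels in these 5 libraries chose the members and are given as a description, with no test. FBgn0207736 goes against the description, since it had reads in quantity in only 1 of 6 D. montana libraries and so is not generally expressed in the D. montana pools.

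The data are read counts from pooled whole flies of 2 Drosophila species. D. montana, strain 175OJ8 from Oulanka in Finland, gave 3 control and 3 cold-acclimated pools of 10 flies. D. virilis, strain TOY3F9 from Toyama in Japan, gave 2 control and 2 cold-acclimated pools of 20 flies. Controls were kept at ambient temperature. No genetic modification is named in the labels of any group, and each species is represented by 1 strain. The stated age after eclosion was 21 to 23 days in D. montana controls and 24 to 26 days in acclimated D. montana. It was 27 and 28 days in D. virilis controls and 29 and 30 days in acclimated D. virilis, so acclimation and stated age cannot be told apart within a species. These ages run from 21 to 30 days without a gap over the 10 samples as listed, so it is doubtful that they are true ages. The labels do not say whether the pools came from separate cultures, and p-values therefore rest on a spread between pools that can be technical in part.

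Species of the virilis group are close relatives that share most of their genes. D. montana is a northern fly known for its tolerance of cold, and D. virilis is the member of the group whose genome has long served as its reference. Cold acclimation is a period of mild cold after which insects survive harsher cold better. Reads of both species were counted on 1 set of identifiers, so the expression of a gene cannot be told apart from how well the reads of each species match those identifiers. The files do not pair the identifiers with gene names, and the table of gene names used here, for a D. montana assembly, holds 0 of them. The members are therefore described by identifier, without roles or sequences, and levels of different members are read shares that are not corrected for gene length.

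The D. montana libraries held 1518027 to 2235850 reads on genes, and the D. virilis libraries 650517 to 1316804. A single read was worth 1.54 and 1.07 CPM in the D. virilis controls and 1.01 and 0.759 CPM in the acclimated libraries. Reads aligned to more than 1 place were set aside before genes were counted. Their share per library was 18.4% to 23.8% for D. montana flies and 75.6% to 83.4% for those of D. virilis. Reads on no identifier went the other way, at 53.1% to 56.6% for D. montana and 8.86% to 14.9% for D. virilis. With all unassigned reads included, libraries held 5874251 to 9545667 reads for D. montana and 6815826 to 16917956 for D. virilis. The part of these shares in the low D. virilis counts of the members was not tested. Within each group, every pair of libraries differed by more than sampling noise and was counted as separate.

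Near-absence in D. virilis was uncommon among identifiers with many reads in D. montana. Of 4116 identifiers at 50 CPM or more in the D. montana controls, 2989 (72.6%) were also at 50 CPM or more in the D. virilis controls, and the median D. virilis level of all 4116 was 84.0 CPM. A further 1112 lay between the levels, and the 15 members made up 0.364%. The mirror set, at 50 CPM or more in D. virilis controls and at most 3 CPM in D. montana controls, held 44 identifiers, 1.17% of the 3754 at that level in D. virilis. The difference between these shares was not tested.

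Together the members took 0.101%, 0.143% and 0.148% of the gene reads in D. montana controls 1 to 3. In the acclimated D. montana libraries they took 0.145%, 0.146% and 0.144%. In D. virilis the shares were 0.00215% and 0.000751% in the controls and 0.00253% and 0.00273% in the acclimated libraries. All 15 members held 14 and 7 reads in D. virilis controls 1 and 2, and 25 and 36 reads in acclimated libraries 1 and 2. No member had more than 3 reads in a D. virilis control or more than 10 reads in any D. virilis library.

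**Figure D1:**
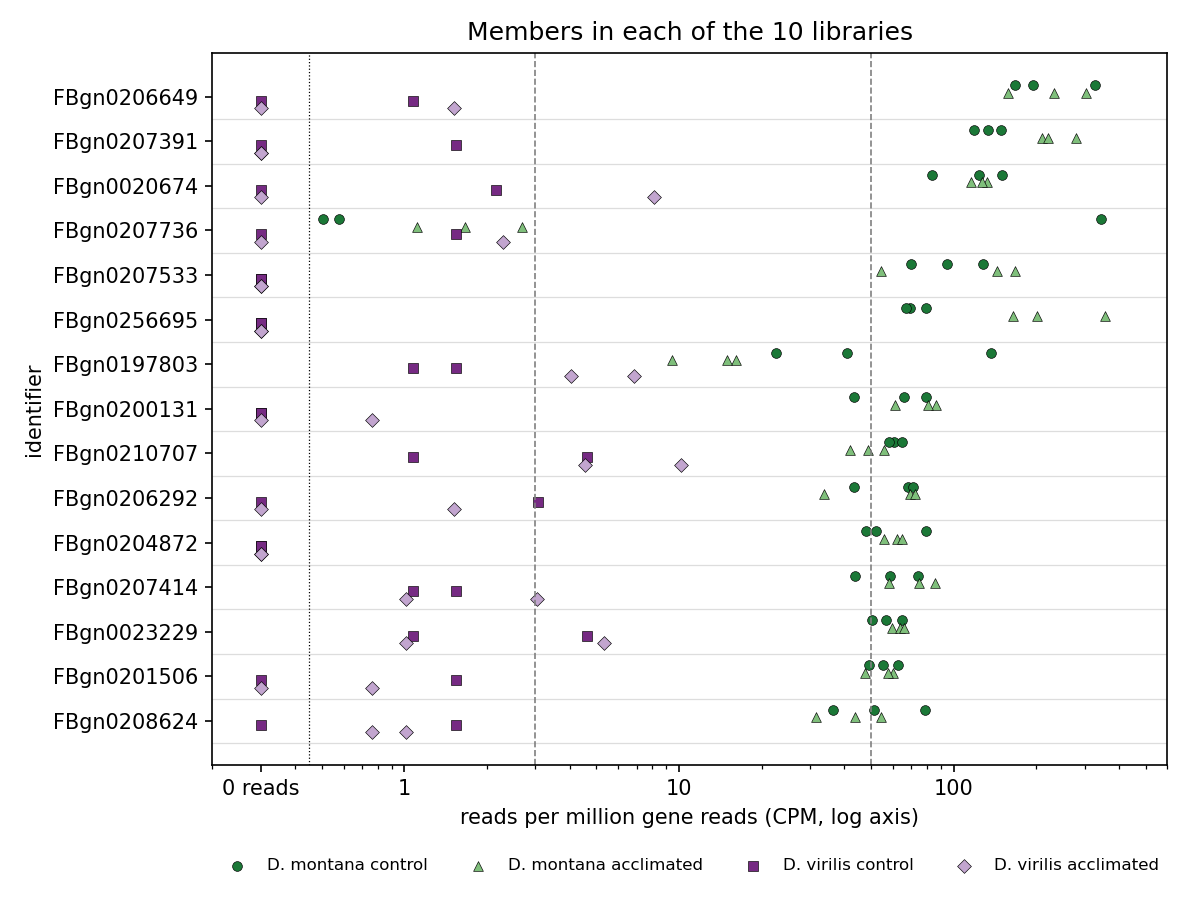
CPM of the 15 members in each of the 10 libraries, on a log axis, with libraries of 0 reads set at the left. Dashed lines mark 3 and 50 CPM. D. virilis libraries lie at or below 10.1 CPM for every member, while FBgn0207736 has 1 D. montana library at 345 CPM and the other five at or below 2.68 CPM.

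The D. virilis values rest on few reads. Over both controls together, 4 members had 0 reads and the others had 1 to 4. For scale, 3 reads of the summed gene reads of each group equal 1.90 CPM in the D. virilis controls and 1.30 CPM in the acclimated libraries. For a member with 0 reads, the exact 95% Poisson interval reached 2.33 CPM in the controls and 1.60 CPM in the acclimated libraries, counting error only. For the 2 members with 4 control reads, FBgn0210707 and FBgn0023229, the exact 95% Poisson interval of the summed control level was 0.689 to 6.47 CPM, and no member's upper bound was higher. The control bounds come from the libraries that chose the members and are a description of depth, which does not order the members in D. virilis.

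Near the 2 levels of the rule the list shades into its surroundings. The lowest D. montana means inside were those of FBgn0208624 at 55.4 CPM and FBgn0201506 at 55.6 CPM. Just outside were FBgn0197775 at 48.5 CPM and FBgn0205525 at 46.8 CPM. On the D. virilis side, FBgn0210707 and FBgn0023229 were just inside with a mean of 2.84 CPM from 4 reads each. FBgn0206160 and FBgn0208784 were just outside with 3.15 CPM from 5 reads each, so 1 read set them apart. Without D. virilis control 1 the rule took 24 identifiers, all 15 members among them. Without control 2 it took 12, and FBgn0210707, FBgn0206292 and FBgn0023229 dropped out.

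Of the members, 3 had 0 reads in all 4 D. virilis libraries, and each of them had at least 73 reads in every D. montana library. FBgn0207533 stood at 128, 69.8 and 94.7 CPM in the D. montana controls and at 54.3, 168 and 144 CPM in the acclimated libraries. FBgn0256695 stood at 69.3, 67.2 and 79.1 CPM in the controls and at 354, 165 and 202 CPM after acclimation. FBgn0204872 stood at 52.0, 48.1 and 79.6 CPM in the controls and at 62.0, 64.8 and 55.9 CPM after acclimation. The groups overlapped for FBgn0207533 and FBgn0204872 and were separate for FBgn0256695.

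The acclimated libraries were not used to choose the members and show whether the pattern was there too. Of the 15 members, 11 had a mean of at least 50 CPM in acclimated D. montana, 11 had a mean of at most 3 CPM in acclimated D. virilis, and 9 met both levels. For 14 members, all 3 acclimated D. montana libraries lay above both acclimated D. virilis libraries. The exception was FBgn0207736, with 1.66, 1.11 and 2.68 CPM in acclimated D. montana and 0 and 2.28 CPM in acclimated D. virilis. The share of all identifiers separated in this way was not counted, so nothing is read from the count of 14. The rule applied to the acclimated libraries alone took 14 identifiers, of which 9 were members. The shared identifiers were 60% of the members and 64.3% of the list from acclimated flies. This swap of libraries was chosen after the data had been seen.

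**Figure D2:**
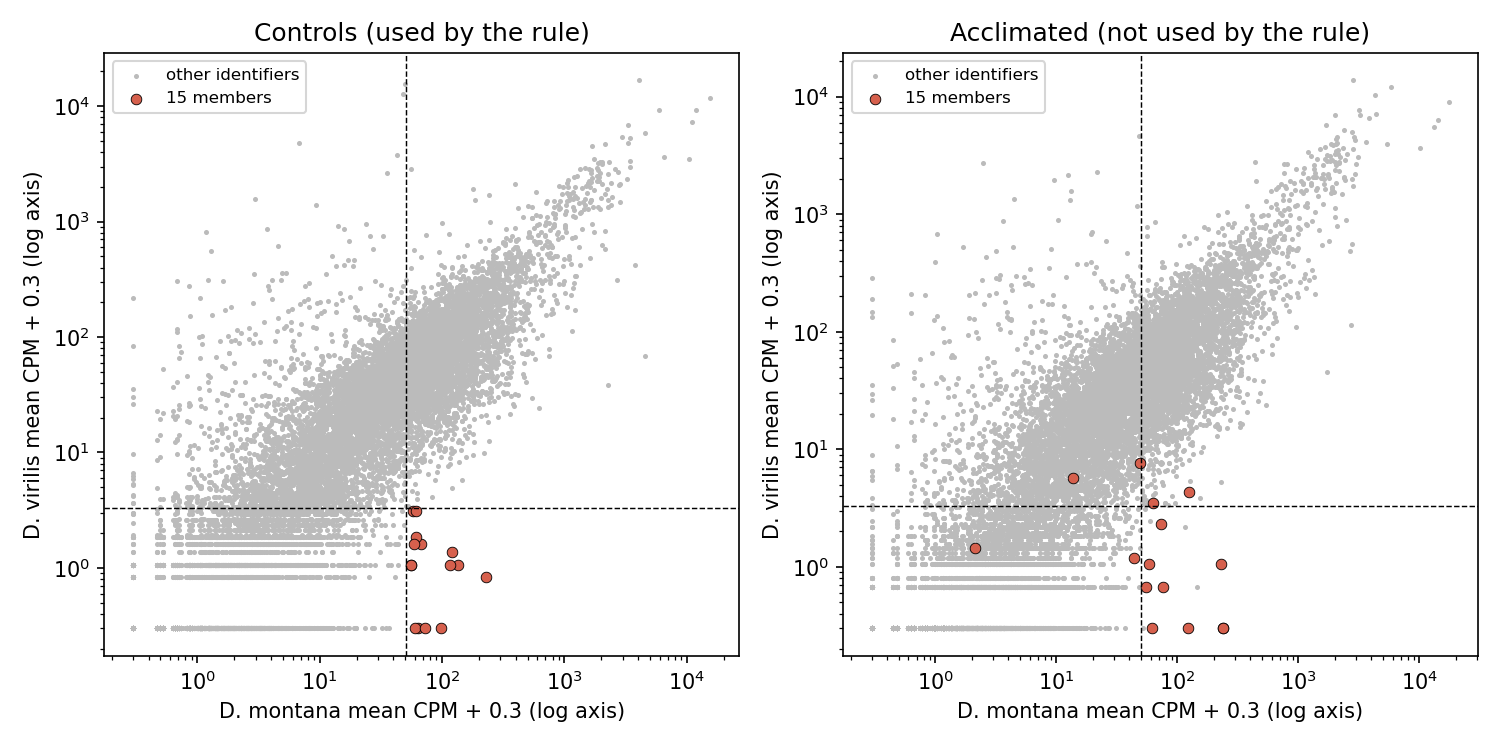
Mean CPM in D. virilis against mean CPM in D. montana for all identifiers, in controls and in acclimated flies, on log axes after adding 0.3 CPM so that 0 can be drawn. Red points are the 15 members, some of which coincide, and dashed lines mark the levels of 50 and 3 CPM. In the acclimated libraries 9 members remain inside both levels and 6 lie outside.

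The difference between species was tested in the acclimated libraries with edgeR's quasi-likelihood test over 9573 identifiers. Species cannot be told apart there from strain, pool size, stated age, any difference of instrument, or the match of each species to the identifiers. Of the 14 members tested, 13 were called, all higher in D. montana, at an adjusted p under 0.05. Of all tested identifiers, 55.5% were called and 28.9% were called higher in D. montana. The members passed the expression filter through D. montana, where they are high, so this count is no support for the pattern, and the differences of called members are given as sizes without p-values. FBgn0207736 did not pass the filter. With library totals used without trimmed-mean scaling, the median log2 difference of all tested identifiers moved from 0.04 to 0.37, and 13 members were called as well.

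FBgn0206649, the member with the largest read share in the D. montana controls, had 286, 546 and 518 reads (158, 303 and 232 CPM) in acclimated D. montana. It had 0 and 2 reads (0 and 1.52 CPM) in acclimated D. virilis. From the summed reads the level was 266-fold higher in D. montana, with an exact 95% interval of 73.5 to 2199 that covers counting error only. Over the 6 D. montana libraries, the 2 identifiers with the most similar profile were FBgn0199821 and FBgn0199123. Pearson r was 0.99 each on log2(CPM + 1), the highest among 8081 compared identifiers. This is a description of 6 libraries, and no shared profile is read from it.

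Of the members, 4 had 0 reads in both acclimated D. virilis libraries, so no ratio can be given. Their summed D. montana level was set against that of 3 reads over both D. virilis libraries, 1.30 CPM. The exact 95% upper bound for 0 reads was higher, 1.60 CPM, so the folds are rough and are not exact lower bounds. Above the 3-read level, FBgn0256695 stood 182-fold, FBgn0207391 181-fold, FBgn0207533 94.8-fold and FBgn0204872 46.5-fold. FBgn0207391 differs from the other three in having had 1 read in D. virilis control 1.

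For members with 1 or 2 reads in acclimated D. virilis the ratio is loose. FBgn0200131 had 156, 110 and 181 reads in acclimated D. montana and 1 read in acclimated D. virilis, a ratio of 176 with an interval of 31.5 to 6973. FBgn0201506 had 109, 104 and 106 reads against 1, a ratio of 126 (22.4 to 4981). FBgn0206292 had 61, 125 and 162 reads against 2, a ratio of 68.6 (18.8 to 568). FBgn0208624 had 57, 98 and 98 reads against 2, a ratio of 49.9 (13.7 to 414), and its acclimated D. montana mean of 43.2 CPM lay below the level of the rule. The intervals overlap one another, so these members cannot be ranked.

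A few members had more reads in acclimated D. virilis. FBgn0210707 had 3 and 1 reads in the D. virilis controls and 10 and 6 in the acclimated libraries, the highest mean level of any member there, 7.34 ± 3.94 CPM (SD, n = 2). In acclimated D. montana it stood at 42.1, 56.0 and 48.8 CPM. The log2 difference was 2.46 (SE 0.39), the smallest among the called members. FBgn0023229 had 3 and 1 reads in the D. virilis controls and 1 and 7 after acclimation, against 59.8, 63.7 and 65.7 CPM in acclimated D. montana. Its log2 difference was 3.85 (SE 0.44). FBgn0207414 had 1 and 4 reads in acclimated D. virilis against 74.7, 58.2 and 85.4 CPM in acclimated D. montana, a log2 difference of 4.72 (SE 0.46). The log2 differences of these members, in the order given, were 3.08, 3.23 and 4.24 without D. virilis acclimated library 1. They were 1.93, 5.55 and 5.76 without library 2.

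FBgn0020674 differed between the acclimated D. virilis pools. It had 8 reads (8.10 CPM) in acclimated library 1 and 0 reads in library 2, after 0 and 2 reads in the controls. In D. montana it stood at 83.7, 124 and 151 CPM in controls and 132, 116 and 127 CPM after acclimation. The log2 difference between species in acclimated flies was 4.80 (SE 0.55), and 3.61 without D. virilis acclimated library 2. Without library 1, D. virilis was left at 0 reads, so the size depended on which pool was used.

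FBgn0197803 was the tested member not called between the acclimated species. It stood at 22.5, 40.8 and 137 CPM in the D. montana controls and at 16.1, 14.96 and 9.39 CPM in the acclimated libraries. In D. virilis it rested on 1 read in each control and 4 and 9 reads (4.05 and 6.83 CPM) in the acclimated libraries. In acclimated flies the log2 difference was 0.93 (SE 0.52, edgeR adjusted p = 0.14), which did not pass the threshold. Control 3 carried most of the D. montana level: without it the control mean was 31.7 CPM and the identifier was no longer a member.

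FBgn0207736 was a member through 1 pool. D. montana control 2 held 523 reads (345 CPM), 99.6% of the D. montana control reads of this identifier. The other five D. montana libraries held 1 to 6 reads, a level of 0.504 to 2.68 CPM, and the D. virilis libraries held 1, 0, 0 and 3. No other identifier was at 50 CPM or more in D. montana control 2 and at least 10 times its level in every other D. montana library. Without control 2 the mean over the D. montana controls was 0.540 CPM, and the rule then took 16 identifiers, 14 of them members. The share of gene reads on the remaining 14 members was 0.108% in control 2, against 0.143% with FBgn0207736.

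Acclimation was tested within D. montana over 9315 identifiers. Of the 14 members tested, 2 rose and 1 fell at an edgeR adjusted p under 0.05, where 1.67% of all tested identifiers were called, 1.16% upward and 0.515% downward. The control libraries in this test also chose the members, so nothing is read from the share of members called. Without acclimated library 1, the highest for both members that rose, 1 member was called (FBgn0256695). The median log2 fold change of the tested members was 0.06, against −0.01 over all tested identifiers. The ranges of the 2 groups were separate for 4 of the 14 members and for 18.4% of all tested identifiers.

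FBgn0256695 rose from 71.8 ± 6.3 to 240 ± 101 CPM (SD, n = 3 each), with every acclimated library at least at 165 CPM and every control at most at 79.1 CPM. The change was 1.78 log2 units with a standard error (SE) of 0.25 and an edgeR adjusted p of 0.0023. It passed the threshold in all 11 alternative fits, with log2 fold changes of 1.36 to 1.99. The level was highest in acclimated library 1, at 354 CPM.

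FBgn0207391 rose from 119, 134 and 149 CPM in the controls to 279, 209 and 221 CPM after acclimation. The groups did not overlap, and the change was 0.85 log2 units (SE 0.17) at an edgeR adjusted p of 0.017. Without control 1, control 2 or acclimated library 1 the log2 fold change was 0.75, 0.83 or 0.70, and the adjusted p missed the threshold (edgeR adjusted p = 0.053, 0.10 and 0.059). Over all alternatives the adjusted p ranged from 0.0016 to 0.10.

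FBgn0197803 fell by 2.34 on the log2 scale (SE 0.54, edgeR adjusted p = 0.038), from 66.8 ± 61.5 to 13.5 ± 3.6 CPM (SD, n = 3 each). The groups did not overlap, but the controls alone ranged from 22.5 to 137 CPM. Without control 3 the fold change was −1.16 and the call was lost (edgeR adjusted p = 0.068). Without acclimated library 1, 2 or 3 it was −2.51, −2.42 or −2.09, and the adjusted p missed the threshold (edgeR adjusted p = 0.13, 0.077 and 0.12), as it did with DESeq2's Wald test (−2.31, adjusted p = 0.15). Control 3, at 137 CPM, also brought this identifier into the list, so its fall is not independent of the choice of members.

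**Figure D3:**
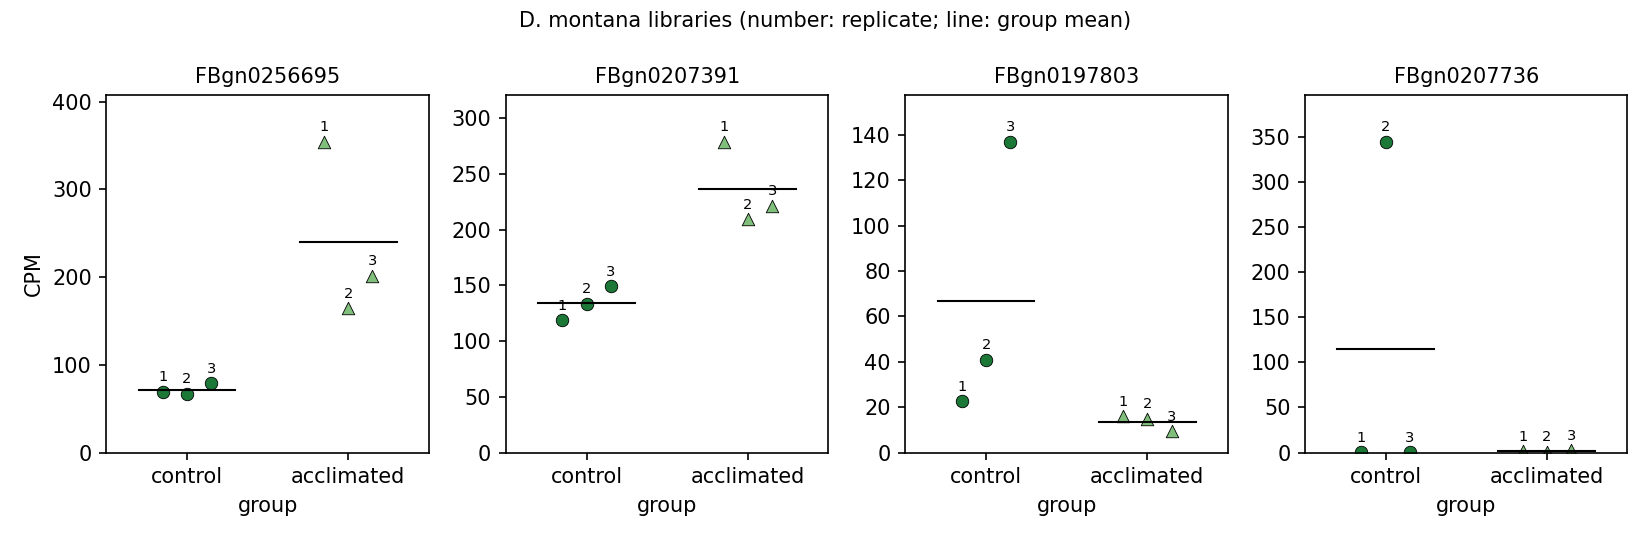
CPM in the 6 D. montana libraries for the 2 members that rose, the member that fell and FBgn0207736, with replicate numbers beside the points and a line at each group mean. Each panel starts at 0 and has its own scale. FBgn0256695 and FBgn0207391 are separate between the groups, while control 3 at 137 CPM sets the control mean of FBgn0197803 and control 2 at 345 CPM that of FBgn0207736.

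The remaining 11 tested members had log2 fold changes between −0.35 and 0.35 in D. montana, with edgeR adjusted p-values of 0.47 to 0.99. FBgn0210707 was the only one of them whose libraries did not overlap, at 60.6, 58.0 and 65.0 CPM in controls and 42.1, 56.0 and 48.8 CPM after acclimation. Its change of −0.30 log2 units (SE 0.17) had an edgeR adjusted p of 0.47 and did not pass the threshold. FBgn0206649 had a log2 fold change of 0.02 (SE 0.26), with 167, 195 and 327 CPM in controls.

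**Figure D4:**
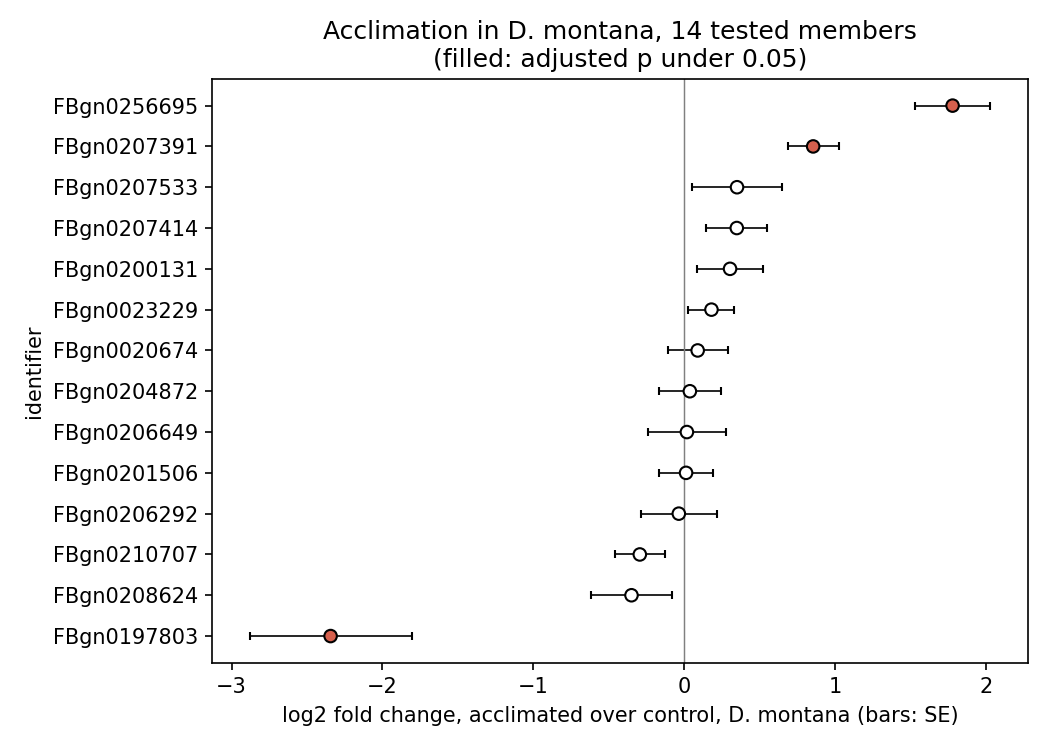
Log2 fold change of the 14 tested members with acclimation in D. montana, acclimated over control, with bars of 1 standard error. Filled points passed an adjusted p of 0.05. The 11 open points lie between −0.35 and 0.35.

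In D. virilis no member passed the expression filter, so 0 of 15 were tested for acclimation, where 0.312% of 7692 tested identifiers were called. Without the filter, 12 members had a read in D. virilis and 0 were called by edgeR, the lowest unadjusted p being 0.17. In that unfiltered fit 3.05% of 13038 identifiers were called and 10.6% had an unadjusted p under 0.05, so 0 of 12 does not set the members apart. The difference in acclimation response between the species was called for 0 of 14 tested members by edgeR and for 0 by DESeq2's Wald test, where edgeR called 0.224% of 9811 identifiers. At an unadjusted p under 0.05 there were 2 members (14.3% of those tested), a share near the 11.4% of all tested identifiers. FBgn0197803 had a difference of −4.55 on the log2 scale (SE 1.67, edgeR adjusted p = 0.30) and FBgn0210707 one of −1.89 (SE 0.74, edgeR adjusted p = 0.33), D. montana minus D. virilis. Control libraries in both tests also chose the members, so nothing is read from these shares, sizes or signs. With so few D. virilis reads, members that respond differently and members that respond alike could not be separated.

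Variation between pools differed among the members. Over the 3 acclimated D. montana libraries, which the rule did not use, the coefficient of variation ran from 4.80% for FBgn0023229 to 49.1% for FBgn0207533. Its median was 18.9% over the 15 members and 12.1% over the 4116 identifiers at 50 CPM or more in D. montana controls. The sets were not matched for level, and FBgn0207736 and FBgn0197803 rested on 11 and 77 summed reads in acclimated D. montana. The medians therefore do not show that the members vary more. Of the 15 members, 7 stayed within a 2-fold range over all 6 D. montana libraries.

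Most identifiers in the files, 14270, fall in 1 run of numbers from FBgn0197334 to FBgn0211799. Of the members, 12 lie in that run, FBgn0020674 and FBgn0023229 have lower numbers, and FBgn0256695 has a higher one. The 3 members outside the run were 20% of the list, against 2.60% of the 4116 identifiers at 50 CPM or more in D. montana controls. FBgn0256695 was 1 of 12 identifiers above the run at that level. Most identifiers of the mirror set also lie above the run, so a place outside it is not particular to the members.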

How the data were processed

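The authors deposited unnormalised read counts for each identifier. HTSeq is the tool named, per the submitters' processing notes. No aligner, build, annotation, strand setting or counting mode is given in the sources used here. Counts of near-identical or overlapping genes are therefore uncertain. The last 5 lines of each file, which name no gene, entered neither library sizes nor tests.

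CPM was the count times 1000000 over the sum of the gene rows. Tests used edgeR 4.0.16 (limma 3.58.1, R 4.3.3), quasi-likelihood F-test, trimmed-mean scaling, the default expression filter by group (minimum count 10, minimum total 15) and Benjamini-Hochberg adjustment over all tested identifiers. Each was fitted on the whole table. Standard errors are the unshrunken log2 fold change over the square root of F, and are not given where a group had 0 reads. Scripts were tested on simulated data. Alternatives were DESeq2 1.42.0, other scalings, no filter, a replicate block and leaving out each library.

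The members, tests and reporting rule were chosen with earlier results of these data known. The rule named members by read share, closeness to the levels, size of called change, level in acclimated D. virilis, spread and absence of reads. FBgn0200131, FBgn0206292, FBgn0207414 and the identifiers in the closing section were added after their values had been seen. The lists of tissue markers written down for this work need gene names and gave no result.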

Additional observations from a re-analysis of the deposited data

How the results depend on the processing

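The number of members depended on the levels: 50 with 25 CPM in place of 50 in D. montana, 4 with 100 CPM, 9 with 1 CPM in place of 3 in D. virilis and 23 with 5 CPM. Leaving out 1 control library gave 12 to 24. With library sizes that leave out the 20 most abundant genes the acclimated D. montana share was 0.162% in place of 0.145%, and FBgn0210707 and FBgn0023229 were no longer members. Leaving out 1 library gave 1 to 2 members called in D. montana, against 3, the 1 being FBgn0256695, without acclimated library 1.

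Genes called in D. montana numbered 156, and 248 with no filter (72 to 285 leaving out 1 library). In D. virilis they numbered 24, and 86 with DESeq2, 38 without scaling, 398 with no filter, 42 with the replicate block and 4 to 214 leaving out 1 library. The difference in response gave 22, and 56 with DESeq2, 80 with no filter and 14 to 194 leaving out 1 library. With no filter FBgn0207736 was called in D. montana (log2 fold change −5.81, edgeR adjusted p = 0.0037) on the reads of control 2. Deviations of same-numbered D. montana libraries correlated at −0.23, −0.12 and −0.13 and those of D. virilis at −0.05. This gave no sign that replicate numbers pair the libraries. Differently numbered libraries were not compared, so pairing is not excluded. The replicate block gave 155 calls in D. montana and 21 for the difference in response. Between species in acclimated flies it gave 4085, against 5310 without it. Member counts were the same, 3, 0 and 13 in that order. For the species comparison the block joins libraries of different species by number alone. It leaves almost no spread to estimate error from, so its calls there carry little weight. The 13 members called between species in acclimated flies were also called with DESeq2, other scalings, no filter and the replicate block. They were called as well when 1 acclimated D. montana library was left out. FBgn0197803 was not called in these fits. Of the 5310 identifiers called in the main fit, 3903 to 5156 were called again in each of them. The members were chosen as high in D. montana, so this is no support for the pattern.

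The sign of uncalled D. montana changes near 0 turned in some fits. FBgn0201506 had −0.019 without scaling and −0.0056 with no filter. Leaving out 1 library gave ranges of −0.10 to 0.15 for FBgn0201506, −0.22 to 0.42 for FBgn0206649, −0.13 to 0.35 for FBgn0020674, −0.24 to 0.22 for FBgn0206292, −0.11 to 0.36 for FBgn0204872 and −0.60 to 0.058 for FBgn0208624. The cause of these movements was not tested. The D. virilis values of the members rest on few reads, since no member had more than 10 reads in a D. virilis library. Members were chosen for low D. virilis control levels, so this is no measure of depth.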

Other observations

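The rule applied to the acclimated libraries took 5 identifiers that are not members. FBgn0201359 had 0 reads in all 4 D. virilis libraries and 145 CPM in D. montana acclimated library 3, against 3.29 to 6.93 CPM in the other D. montana libraries, so it too rested on 1 pool. FBgn0208850 stood at 121, 98.2 and 138 CPM in D. montana controls and 117, 178 and 143 CPM after acclimation. In D. virilis it had 9.22 and 0 CPM in controls and 0 and 0.759 CPM in acclimated libraries. FBgn0199426 had 10.8 and 12.9 CPM in the D. virilis controls and 3.04 and 0.759 CPM in acclimated libraries, against 89.7 to 156 CPM over the D. montana libraries. FBgn0210546 lay just above the D. virilis level in controls, with a mean of 3.68 CPM. FBgn0206318 had a mean of 31.9 CPM in D. montana controls and 53.5 CPM in acclimated D. montana.

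Of the 44 identifiers of the mirror set, 23 (52.3%) met both mirrored levels in the acclimated libraries, which the mirrored rule did not use. They took 0.708% to 1.04% of gene reads per D. virilis library and 0.00548% to 0.0115% per D. montana library, and the highest D. virilis control mean was 1569 CPM. Identifiers at 50 CPM or more in 1 library and at least 10 times lower in every other library of its species numbered 0 to 3 in the D. montana libraries and 0 to 7 in the D. virilis libraries, with 7 in D. virilis acclimated library 1. FBgn0207736 was the 1 member among them.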
